A study of Mus musculus with 22 samples.

Results

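Erythroid cells, the cells of the red blood lineage, made up 1228 of the 25185 cells that were kept from the single-cell RNA-seq (scRNA-seq) of the mouse olfactory epithelium (OE). They were chosen by their hemoglobin RNA. A kept cell had more than 500 genes, more than 1500 unique molecular identifiers (UMIs, each standing for 1 captured RNA molecule) and under 20% mitochondrial UMIs. A member had 10% or more of its UMIs on the 4 adult globin genes Hba-a1, Hba-a2, Hbb-bs and Hbb-bt, and under 5% on S100a8 and S100a9, the abundant calcium-binding protein genes of neutrophils. The levels of these 6 genes in the members follow from that choice, and so do the levels of any gene in members against other cells, which are therefore given as a description with no test.

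The study asked what the loss of UPF3B, which acts in nonsense-mediated decay (NMD), the degradation of RNAs that carry early stop codons, does to the OE. Dissociated OE cells, from which dead cells had been removed, were captured from 4 WT (Upf3b+/y) and 4 Upf3b-null (Upf3b-/y) mice. All were C57BL/6 males of 7 to 8 weeks by the study's methods, which name the C57BL/6J line, and there is 1 library per mouse. Upf3b is X-linked, and the null genotype is that of the whole animal, blood lineage included. The suspensions were not sorted, and the tissue a blood cell came from cannot be told.

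Red cells arise from dividing erythroblasts in the bone marrow and spleen. As an erythroblast matures it takes up iron, makes heme and globin, stops dividing, expels its nucleus and clears its organelles, and the resulting reticulocyte still holds RNA before it becomes an erythrocyte. A nucleated erythroblast therefore carries RNA of the cell cycle and of erythroid transcription factors, whereas a reticulocyte makes no new RNA and holds mostly globin messages.

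The 8 libraries did not resemble each other equally, and this was measured in the other 23957 kept cells, without the members. Over genes above 20 CPM (counts per 1000000 UMIs outside the 4 globin genes), the summed profiles of WT replicates 1 and 2 and Upf3b-null replicates 1, 2 and 3 correlated at Pearson's r from 0.933 to 0.979 with each other. WT replicates 3 and 4 and Upf3b-null replicate 4 correlated at 0.898 to 0.955 with each other and at 0.761 to 0.852 with the first 5. The first 5 libraries are called set A here and the other 3 set B. The labels name no batch, and both sets hold both genotypes. Gm42418, a transcript that overlaps ribosomal RNA and was singled out after its values were seen, stood at 37.2 to 161 CPM in the other cells of set A and at 2081 to 4197 CPM in set B. Of 31657 distinct barcodes 628 occurred in more than 1 library, and 63 erythroid cells had such a barcode, but no barcode was erythroid in more than 1 library. No doublet caller was run.

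Erythroid cells were found in all 8 libraries but in very uneven numbers. WT replicate 1 held 31 erythroid cells of 1832 kept cells (1.69%, exact 95% binomial interval 1.15 to 2.39%), WT replicate 2 held 1 of 1444 (0.0693%, 0.00175 to 0.385%), WT replicate 3 held 235 of 2791 (8.42%, 7.42 to 9.51%) and WT replicate 4 held 207 of 3080 (6.72%, 5.86 to 7.66%). Upf3b-null replicate 1 held 111 of 7157 (1.55%, 1.28 to 1.86%), replicate 2 held 15 of 1334 (1.12%, 0.631 to 1.85%), replicate 3 held 272 of 1710 (15.9%, 14.2 to 17.7%) and replicate 4 held 356 of 5837 (6.10%, 5.50 to 6.74%). These intervals cover counting error only, and the spread between mice of 1 genotype was far wider than any of them. Genotypes overlapped: the mean share was 4.23 ± 3.98% in WT and 6.17 ± 6.87% in Upf3b-null mice (SD, n = 4 each), and the exact two-sided permutation test gave p = 0.714 (0.714 after Benjamini-Hochberg adjustment over 3 tests on libraries, the smallest possible p being 0.0286). Within set A the mean was 0.881% over 2 WT and 6.19% over 3 Upf3b-null libraries, and within set B it was 7.57% over 2 WT libraries against 6.10% in the 1 Upf3b-null library, so the sign of the difference was not the same in both sets. Without Upf3b-null replicate 3 the null mean lay below WT, the difference being -1.30 percentage points. These shares also depended on erythroid cells that held markers of other cell types. When erythroid cells in which a marker list of another cell type held over 2% of non-globin UMIs were left out, an alternative chosen after seeing the data, Upf3b-null replicate 3 went to 1.93% and replicate 4 to 1.40%, while WT replicates 3 and 4 stood at 7.56% and 5.68%. The means were then 3.70 ± 3.51% in WT and 1.42 ± 0.392% in Upf3b-null mice (SD, n = 4 each, exact permutation p = 0.343), so the sign of the difference turned, and neither form passed the test.

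**Figure D1:**
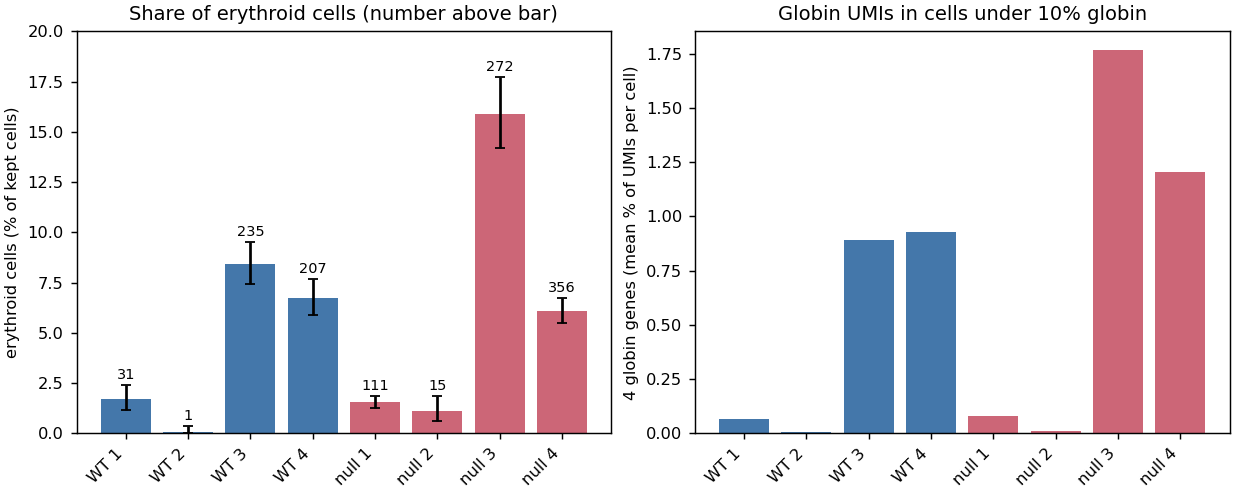
Left, the percentage of kept cells that were erythroid in each library (bars, blue for WT and red for Upf3b-null), with exact 95% binomial intervals and the number of erythroid cells above each bar; right, the mean percentage of UMIs on the 4 globin genes in kept cells with under 10% globin. Upf3b-null replicate 3 is highest in both panels, at 15.9% and 1.76%, and WT replicate 2 is lowest in both.

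Globin UMIs were also present at a low level outside the erythroid cells. In kept cells with under 10% globin the mean share was 0.0677%, 0.00582%, 0.893% and 0.926% in WT replicates 1 to 4 and 0.0783%, 0.0128%, 1.76% and 1.21% in Upf3b-null replicates 1 to 4. The 4 libraries with over 200 erythroid cells were the 4 with the higher values. The difference between genotypes did not pass the test (0.473 ± 0.505% in WT and 0.765 ± 0.862% in Upf3b-null, SD, n = 4 each, exact permutation p = 0.486, adjusted 0.714). Upf3b-null was above WT in 4 of 4 pairs of same-numbered libraries, for which the exact sign-flip test, added after seeing the data, gave p = 0.125, the smallest that 4 pairs allow. Number 3 joins a WT library of set B with a null library of set A. Of all globin UMIs in kept cells, from 68.1% in Upf3b-null replicate 4 to 96.7% in Upf3b-null replicate 2 lay in erythroid cells.

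The label was checked on erythroid genes that the rule did not name. Alas2, the erythroid enzyme of the first step of heme synthesis, had a UMI in 88.8% of erythroid cells and in 5.36% of other cells. Slc25a37, which carries iron into mitochondria, had one in 74.2% and 14.7%, and Bpgm, which makes the hemoglobin ligand 2,3-bisphosphoglycerate, in 72.3% and 21.2%. Because depth differs between cells, each cell was also thinned to 500 non-globin UMIs, for which no cell had to be left out. Then Alas2 had a UMI in 50.5 to 87.5% of erythroid cells in the 7 libraries with 10 or more of them and in at most 2.21% of other cells in any library. Bpgm had one in 16.2 to 73.5% against at most 5.49%, and Slc25a37 in 16.9 to 59.6% against at most 4.87%, so all 3 exceeded the share in other cells in each of these libraries. Of 16 erythroid markers outside the rule, 15 were over 2-fold higher in erythroid than in other cells in the median library and 12 were higher in each of the 7, where 9.98% and 9.45% of 2264 genes with a UMI in at least 10% of erythroid cells met the same rules (63 genes, 2.78%, were below 0.5 of the level in other cells in the median library, and no erythroid marker was). Trim58 was the exception, with UMIs in only 0.407% of erythroid cells.

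The support was not equal for every cell. UMIs of 3 or more of the 16 markers were present in 961 erythroid cells (78.3%), while 33 cells had none. Pooled over libraries, the share was higher in cells with more globin. It was 54.2% of the 120 cells with 10 to 20% globin and 71.6% of 342 cells with 20 to 50%. It was 79.2% of 419 cells with 50 to 70% and 91.9% of 347 cells above 70%. The libraries were spread unequally over these groups. Set B held 100 of the 120 cells with 10 to 20% globin, and Upf3b-null replicate 3 held 213 of the 347 above 70%. Just inside the threshold, at 10 to 12% globin, 6 of 19 cells had 3 markers, with a median of 1888 genes, and just outside it, at 8 to 10%, 12 of 30 cells had them, with a median of 1781 genes. By library, 3 or more markers were present in 90.3% of erythroid cells in WT replicate 1, 59.6% in WT replicate 3, 57.5% in WT replicate 4, 92.8% in Upf3b-null replicate 1, 93.3% in replicate 2, 90.4% in replicate 3 and 87.1% in replicate 4. The limit on S100a8 and S100a9 kept out 57 further cells with 10% globin, 46 of them in Upf3b-null replicate 4, and the gates on genes, UMIs and mitochondria kept out 1175 further barcodes that met both limits.

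GATA1, the zinc finger factor that drives the erythroid program, binds GATA motifs. In the promoter windows of RefSeq (GRCm38.p6, 250 bases before to 50 after each start site) the letters GATAA and GATAG, each with an A or a T in front, were searched on both strands. They were present in 9 of the 12 windows found for the erythroid markers and in 8 of 18 for the 25 leading genes, 3 of 10 for heme synthesis genes and 29.8% of all 32851 windows, which is a description with no test. The stretches below are shown for 2 globin genes of the rule, for Alas2, a marker of the label, and for Klf1 and Rhd, whose levels did not overlap between the library sets. Each is printed 5′ to 3′ on the gene's strand with 10 bases on each side, and capitals mark the matched letters.
Alas2, chrX:150547321-150547346, + strand, match starting 86 bases before the start site: actttgctttTTATCTttagcagagg
Klf1, chr8:84901892-84901917, + strand, 80 bases before: tgcctgggtcTTATCAgggaagacag
Hba-a1, chr11:32283479-32283504, + strand, 183 bases before: tccgggcaacTGATAAggattccctg
Hbb-bs, chr7:103828123-103828148, - strand, 210 bases before: ttctctgcacAGATAAggacaaacat
Rhd, chr4:134864483-134864508, + strand, 43 bases before: cggcagcctgAGATAAgacctttggc
In Alas2 and Klf1 the match reads on the opposite strand. A CACCC box, the letters bound by KLF1, was present on either strand in 8 of the 12 marker windows and in 57.5% of all windows.

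The 25 genes outside the rule that stood highest above other cells included genes of the red cell coat, of gas transport and of heme synthesis. They were ranked by the median over 7 libraries of the log2 ratio of erythroid to other cells, with 20 CPM added to each. Alas2 had 5.86 (range over libraries 4.81 to 6.88). Slc4a1, the chloride and bicarbonate exchanger band 3, had 4.67, Rhd, the Rh blood group protein, 4.31, and Aqp1, the water channel, 3.56. Car2, carbonic anhydrase, had 4.79, and Gpx1, which removes peroxides, 3.86. Fech, the last enzyme of heme synthesis, had 4.64. Hemgn, a nuclear protein of erythroid cells, had 4.19, Trim10, a ring finger protein of terminal erythroid differentiation, 4.25, and Tspo2, an erythroid cholesterol-binding protein, 3.76. The ubiquitin-conjugating enzyme Ube2l6, which also serves the ubiquitin-like protein ISG15, had 4.67. With it came other genes best known as interferon-induced, Rsad2 with 4.47, Isg20 with 3.96 and Isg15 with 3.89. Slc25a37, Bpgm, Ctse, Dhrs11, Nxpe2, Fam46c, Cldn13, Apol11b and Tspan33 stood at 3.56 to 4.12. The median over all 2264 genes was -0.12.

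The levels of these genes within erythroid cells differed greatly between libraries, and many did not overlap between the library sets. Car2 stood at 11708 CPM in WT replicate 1, at 7158, 11401 and 5849 CPM in Upf3b-null replicates 1, 2 and 3, and at 418, 647 and 1081 CPM in WT replicates 3 and 4 and Upf3b-null replicate 4. The 4 libraries of set A with 10 or more erythroid cells did not overlap with the 3 of set B. Rhd was arranged the same way, at 920.0, 801, 1207 and 659 CPM in set A and 15.2, 23.9 and 47.0 CPM in set B. For comparison, of all 16578 genes with a UMI in erythroid cells 6.65% were higher in every library of set A than in any of set B, and 21.5% the other way round (23.4% and 23.6% of the 2264 more often detected genes). The single erythroid cell of WT replicate 2, with 969 non-globin UMIs, is left out of these comparisons.

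Heme synthesis genes were arranged in the same way. Of the 9 enzymes of the list, 7 were higher in every set A library, and 8 were over 2-fold higher in erythroid than other cells in the median library (list median 2.51). Summed, they held 11822, 6475, 10757 and 8643 CPM in set A (WT replicate 1, Upf3b-null replicates 1, 2 and 3) and 2780, 2561 and 2591 CPM in set B (WT replicates 3 and 4, Upf3b-null replicate 4). In the same order Cpox, a late mitochondrial step, stood at 1437, 862, 1341 and 339 CPM against 34.2, 32.8 and 80.4 CPM, so the sets did not overlap. Alas2 itself overlapped between the sets, at 3037, 1306, 2468 and 4542 CPM against 1914, 1876 and 1672 CPM. Alas1, the housekeeping form of the same enzyme, was no higher in erythroid than in other cells (median log2 ratio -0.74).

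Iron and oxygen-handling genes gave a mixed picture. Tfrc, the transferrin receptor through which erythroblasts take up iron, stood at 693, 476, 563 and 183 CPM in set A and 60.8, 29.8 and 231 CPM in set B. The ferritin chains Fth1 and Ftl1, which store iron, were the most abundant of the list in the sum over libraries, though in Upf3b-null replicate 4 Slc25a37 (1756 CPM) exceeded Ftl1 (1649.7 CPM), and Fth1 stood at 12666, 10163, 12823 and 5774 CPM in set A and 2689, 3253 and 2586 CPM in set B. Slc25a37 broke the pattern, with 1827, 1163, 1288 and 454 CPM in set A and 2100, 1369 and 1756 CPM in set B. Of the 14 iron genes measured, 7 were higher in all set A libraries, and of 12 genes of hemoglobin stability and red cell metabolism 7 were, among them the antioxidant enzyme Prdx2, at 8356, 5108, 8799 and 5071 CPM against 1215, 1106 and 1442 CPM. The share higher in all set A libraries was 6.65% over all 16578 genes and 23.4% over the 2264 more often detected ones.

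Membrane and skeleton genes followed the sets as well, since 16 of 20 were higher in every library of set A, among them Slc4a1 and the blood group genes Rhd, Rhag and Kel. Slc4a1 stood at 1487, 1181, 1636 and 767 CPM in set A and 270, 119 and 562 CPM in set B. Epb41, the skeletal protein 4.1R, was the 1 gene of the list that was higher in all of set B, at 699, 525 and 681 CPM against 303, 157, 107 and 348 CPM.

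Transcription factors and cell cycle genes also differed between the sets. Klf1, the factor that switches on adult beta globin and many other red cell genes, stood at 1084, 948, 1180.3 and 262 CPM in set A, while WT replicates 3 and 4 had no Klf1 UMI in 235 and 207 erythroid cells and Upf3b-null replicate 4 stood at 22.8 CPM. Gata1 stood at 252, 157, 161 and 62.2 CPM against 12.1 CPM or less in set B. Epor, the receptor for erythropoietin, stood at 151, 82.3, 295 and 54.9 CPM against 7.60, 0 and 10.6 CPM. All 28 cell cycle genes were higher in every library of set A than in any of set B. Summed, they held 13208, 11222, 16176 and 5467 CPM in set A and 775, 903 and 1609 CPM in set B, where the other cells of the same libraries held between 492 and 1547 CPM. Among them, Birc5, a survivin of dividing cells, stood at 1827, 1649, 2227 and 648 CPM against 45.6, 77.5 and 102 CPM, and Rrm2, the ribonucleotide reductase subunit of DNA synthesis, at 1550.2, 1553, 2575 and 676 CPM against 15.2, 11.9 and 44.0 CPM. The genes in the same list of factors that were higher in all of set B (Ldb1, Bcl11a, Myb and Kit) were no higher in erythroid than in other cells, with median log2 ratios of -0.34, -0.25, -0.44 and -0.13.

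**Figure D2:**
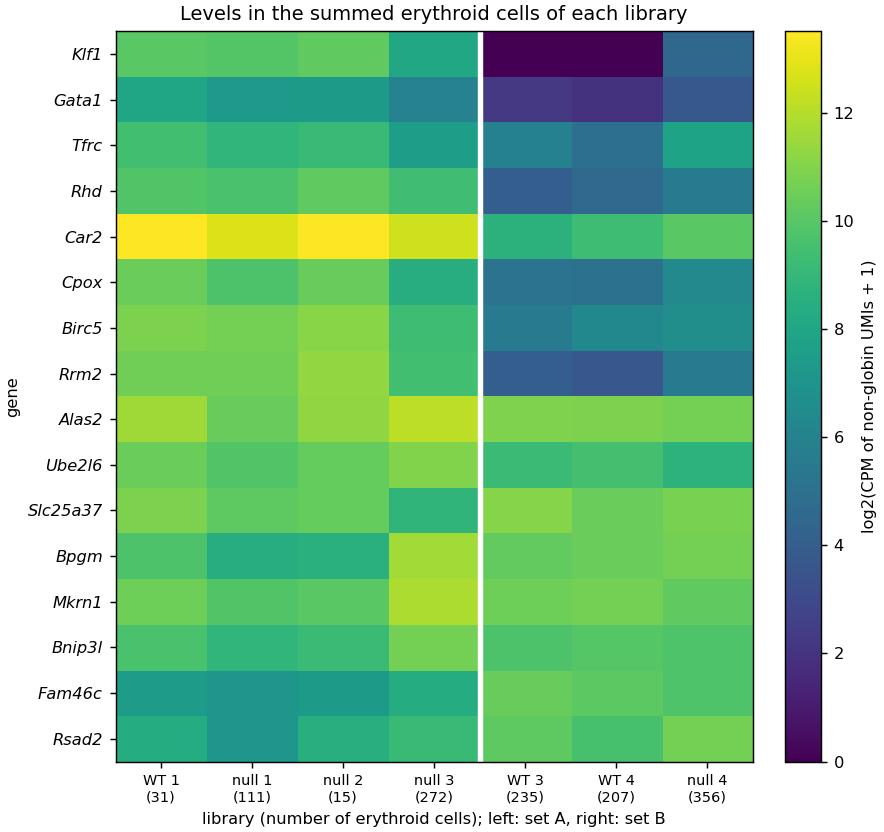
Levels of 16 erythroid genes (rows) in the summed erythroid cells of the 7 libraries with 10 or more such cells (columns, number of cells in brackets), as log2 of CPM of non-globin UMIs plus 1, with set A left and set B right of the white line. The first 8 genes are lower in set B, Klf1 being without a UMI in WT 3 and WT 4, apart from Tfrc, for which null 4 (231 CPM) exceeds null 3 (183 CPM), whereas Fam46c and Rsad2 are brightest in set B, and Bpgm and Mkrn1 are brightest in null 3.

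Genes of the late steps, when organelles and proteins are cleared, were arranged in more than 1 way. Of the 21 measured, 7 (33.3%) were higher in all of set A, among them Ube2l6, the autophagy protein gene Map1lc3b and Fbxo7, which helps direct proteins to ubiquitin, 2 (9.52%) were higher in all of set B and 12 overlapped. For comparison, 6.65% of all 16578 genes were higher in all of set A and 21.5% in all of set B. Over the 2264 more often detected genes these shares were 23.4% and 23.6%. The 2 higher in set B were Ube2o, the ubiquitin ligase that removes ribosomal proteins from reticulocytes, at 308, 289 and 258 CPM in set B against 176, 100.2, 26.8 and 247 CPM, and Fam46c, a poly(A) polymerase, at 1341, 1100.3 and 901 CPM against 176, 136, 161 and 335 CPM. Bnip3l, which marks mitochondria for removal, was highest in Upf3b-null replicate 3, at 1629 CPM, and stood between 476 and 993 CPM elsewhere. Mkrn1, a RING ubiquitin ligase, and Bpgm were likewise highest in Upf3b-null replicate 3, at 3724 and 3191 CPM, with 909 to 1667 CPM and 343 to 1682 CPM in the other 6 libraries. Upf3b-null replicate 3 was highest for 10.2% of the 2264 genes. The genes best known as interferon-induced did not share 1 order. Rsad2 was higher in set B, at 1151, 775 and 1647 CPM against 328, 136, 349 and 566 CPM in set A. Isg15 was higher in set A, at 970.4, 447, 778 and 846 CPM against 110.1, 206 and 409.8 CPM, and so was Isg20, at 731, 397, 778 and 741 CPM against 186, 242 and 185 CPM.

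Erythroid cells also differed in UMI totals and content between libraries. The median globin share was 36.3% in WT replicate 1, 57.0% in WT replicate 3, 56.7% in WT replicate 4, and 42.8%, 44.9%, 79.4% and 49.6% in Upf3b-null replicates 1 to 4. These medians rest on the gates on genes, UMIs and mitochondria. Without the gates, WT replicate 1 had 159 barcodes over the limits in place of 31, with a median of 85.1%, and Upf3b-null replicate 2 had 46 in place of 15, with 76.2%, so that WT replicate 1 and not Upf3b-null replicate 3 (81.7%) was highest. The cells of Upf3b-null replicate 3 held the most UMIs, with a median of 7467, against 2272 to 3878 in the other libraries with 10 or more erythroid cells. Outside the globins the medians lay closer together, between 955 UMIs in WT replicate 3 and 2307 in WT replicate 1. The median mitochondrial share of all UMIs was 2.38 to 3.70% in set A and 5.59 to 7.82% in set B. It was below that of the other cells of the same library (5.59 to 15.8%) in all 7. Globin UMIs, which the rule makes abundant in members, count in that total and lower the share. The comparison therefore cannot show a lower mitochondrial share of the RNA outside the globins.

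Sorting the cells of 1 library by their globin share gave a comparison inside Upf3b-null replicate 3 that does not set libraries against each other. In its 38 cells with 50 to 70% globin, Klf1 stood at 631 CPM, the 28 cell cycle genes together at 12815 CPM, Bpgm at 603 CPM and Mkrn1 at 1124 CPM. In its 213 cells above 70%, Klf1 stood at 45.2 CPM, the cell cycle genes at 1411 CPM, Bpgm at 4944 CPM and Mkrn1 at 5596 CPM. The former cells also held more genes (median 1222 against 752). Their median total UMIs were 6471 against 7568, but they held 109402 non-globin UMIs in 38 cells against 331689 in 213, so they were also deeper outside the globins. Upf3b-null replicate 1, whose cells seldom passed 70%, did not show the lower Klf1 and cell cycle levels over the range it covered: its 43 cells with 50 to 70% globin had 1334 CPM of Klf1 and 15995 CPM of cell cycle genes. Its Bpgm and Mkrn1 were higher with more globin, at 28.7, 275 and 693 CPM and at 345, 675 and 1841 CPM over 10 to 20%, 20 to 50% and 50 to 70% globin. In WT replicates 3 and 4 Klf1 had no UMI at any globin share, and the cell cycle genes stayed between 382 and 1136 CPM. From 10 to 20% globin to above 70%, Bpgm went from 306 to 3123 CPM in WT replicate 3 and from 152 to 3572 CPM in WT replicate 4. Upf3b-null replicate 4 had 17.6, 20.2, 46.4 and 0 CPM of Klf1 over 10 to 20%, 20 to 50%, 50 to 70% and above 70% globin. In the same order its cell cycle genes stood at 1948, 1280, 1538 and 1848 CPM and its Bpgm at 356, 1102, 2992 and 6669 CPM. In Upf3b-null replicate 3 neutrophil markers exceeded 2% of non-globin UMIs in 235 of its 272 erythroid cells, and Omp, the neuronal gene, stood at 1209, 1874 and 3187 CPM over 20 to 50%, 50 to 70% and above 70% globin. The part of this RNA in these values was not tested. These values are relative to the non-globin UMIs of the same cells, and the globin share was set by the rule, so they describe the members and carry no test.

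**Figure D3:**
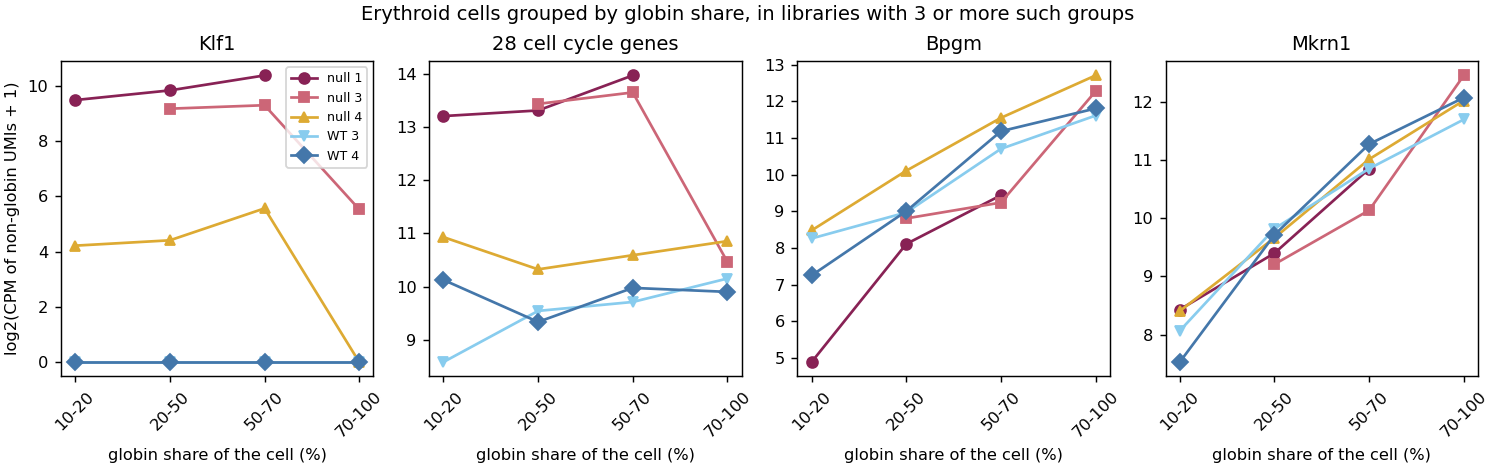
Klf1, the sum of 28 cell cycle genes, Bpgm and Mkrn1 in erythroid cells grouped by their globin share (x axis, percent of UMIs), as log2 of CPM of non-globin UMIs plus 1, with a line for each of 5 libraries and a point for each group of 10 or more cells. In null 3 Klf1 and the cell cycle genes drop and Bpgm and Mkrn1 climb between 50-70% and 70-100%, whereas in WT 3 and WT 4 Klf1 stays at 0 and Bpgm climbs throughout.

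The 4 adult globins were used in sum by the rule, but their ratios were not. Alpha globin UMIs were 40.6%, 44.7% and 43.2% of the 4 genes in WT replicates 1, 3 and 4 and 50.7%, 46.9%, 44.7% and 38.8% in Upf3b-null replicates 1 to 4. Hbb-bt took 14.9%, 13.9% and 14.2% of beta globin UMIs in WT replicates 1, 3 and 4 and 17.0%, 23.8%, 14.9% and 20.2% in the null libraries. The difference in the share of Hbb-bt did not pass an exact two-sided permutation test (p = 0.0857, the smallest possible being 0.0286), which was chosen after these values were seen. That test ignores the replicate numbers. In each same-numbered pair of these libraries (numbers 1, 3 and 4) Upf3b-null was above WT, though number 3 joins libraries of different sets, and no paired test was run. In the other cells of the same libraries Hbb-bt took 14.6%, 12.9% and 10.8% in WT and 16.3%, 23.1%, 11.3% and 19.6% in Upf3b-null, close to the erythroid cells of each library except in WT replicate 4 and null replicate 3. Hbb-bs and Hbb-bt, like Hba-a1 and Hba-a2, are near-identical copies, so the split of reads between them is uncertain. Of the embryonic globins, Hbb-bh1 had a UMI in 1.30% of erythroid cells and Hbb-bh2, Hbb-y and Hba-x in 0.163% or fewer. The theta globin gene Hbq1b was present in 17.7% of erythroid cells and 0.213% of other cells, and stood at 340, 225, 268 and 229 CPM in set A and 41.8, 29.8 and 62.2 CPM in set B.

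RNA of other cell types was present in the erythroid cells, and that of neurons and glands moved with the library set. The 10 markers of mature olfactory sensory neurons (mOSNs) held together 4688, 3549, 3192 and 9121 CPM in the erythroid cells of set A (WT replicate 1, Upf3b-null replicates 1, 2 and 3), which was 40.4%, 43.0%, 17.9% and 85.0% of their level in the other cells of the same library. In set B they held 13414, 11495 and 9974 CPM, or 131%, 128% and 129%. Gng13, a G protein subunit of sensory cilia, was the most abundant in the sum over libraries, with 33.8% of the list's UMIs, and in each tested library other than WT replicate 1 (Stoml3) and Upf3b-null replicate 1 (Gnb1). Omp, the marker of mature sensory neurons, had a UMI in 84.6% of erythroid cells and 73.5% of other cells. Neutrophil markers, which include the S100a8 and S100a9 of the rule, stood at 479, 5788, 161 and 33764 CPM in set A and 6676, 7234 and 20396 CPM in set B, with S100a8 holding 46.8%. Gland markers stood at 252, 1052, 268 and 1997 CPM and at 5149.7, 6193 and 8502 CPM, with Obp2a, an odorant-binding protein gene, first in the sum over libraries but first only in Upf3b-null replicate 4 when libraries are taken singly. Macrophage markers, T cell markers (Nkg7 first in the sum over libraries), platelet markers (Pf4 first) and endothelial markers (Pecam1 first) held at most 2023, 33.4, 107 and 38.8 CPM in a library with 10 or more erythroid cells. Sustentacular markers, with Cyp2a5 first in the sum, held 53.6 to 2019 CPM in set A and 1757 to 3501 CPM in set B. The B cell list held 161 to 643 CPM and 737 to 1154 CPM. Ebf1 made up 76.5% of the UMIs of that list, and the cell type from which its UMIs came was not tested. In 588 of 1228 erythroid cells at least 1 such list exceeded 2% of non-globin UMIs, and these cells were spread very unevenly. They were 239 of 272 in Upf3b-null replicate 3 (87.9%) and 274 of 356 in Upf3b-null replicate 4 (77.0%), but 24 of 235 (10.2%) and 32 of 207 (15.5%) in WT replicates 3 and 4 and at most 13.3% in the other libraries. Neutrophil markers were over the limit in 235 and 233 cells of Upf3b-null replicates 3 and 4 and in 10 cells of all the other libraries together. The part of this RNA in the differences between library sets was not tested.

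**Figure D4:**
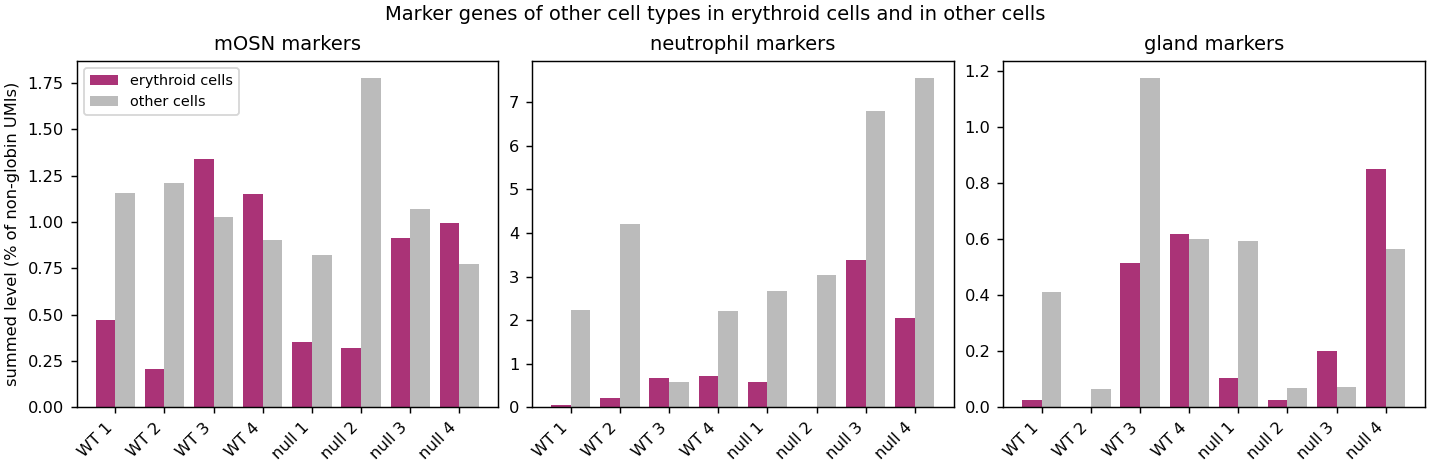
Summed level of markers of mature olfactory sensory neurons (mOSN), neutrophils and glands, as a percentage of non-globin UMIs, in the erythroid cells (purple) and in the other kept cells (grey) of each library. Purple exceeds grey for mOSN markers in WT 3, WT 4 and null 4, at 131%, 128% and 129% of the level in other cells, and is at 40.4%, 43.0% and 17.9% of it in WT 1, null 1 and null 2.

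Upf3b RNA was nearly absent from the erythroid cells of null mice, as the genotype labels state. It stood at 88.2, 49.4 and 71.6 CPM (7, 13 and 24 UMIs) in WT replicates 1, 3 and 4, and the single cell of WT replicate 2 had none. Upf3b-null replicates 1, 2 and 3 had no UMI, which allows up to 10.7, 80.5 and 5.49 CPM for 3 counts, and Upf3b-null replicate 4 had 1 UMI (1.52 CPM). The WT libraries with 10 or more erythroid cells all lay above the null libraries. Over all 8 libraries the exact two-sided permutation test gave p = 0.143 (0.429 adjusted over 3 tests), because the 1 cell of WT replicate 2 counted as a library at 0, and over the 7 libraries with 10 or more erythroid cells it gave the smallest possible p of 0.0286 (69.7 ± 19.5 CPM, n = 3, against 0.379 ± 0.759 CPM, n = 4). Pooled, the null level was 1.01% of WT, with a counting interval of 0.0251 to 5.94%. Over both genotypes together, a Upf3b UMI was present in 3.58% of erythroid cells and 7.50% of other cells. These shares include the null cells and are not matched for depth, the median non-globin UMIs being 1314 and 2814. In the other cells Upf3b stood at 58.4, 81.4 and 92.9 CPM in WT replicates 1, 3 and 4, so the erythroid level was above that of other cells in replicate 1 and below it in replicates 3 and 4, where mOSN markers in erythroid cells exceeded their level in other cells. Whether the Upf3b UMIs belonged to the erythroid cells or to RNA of other cells was not tested. Other cells held 58.4 to 92.9 CPM over the 4 WT and 0.214 to 1.69 CPM in Upf3b-null libraries.

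**Figure D5:**
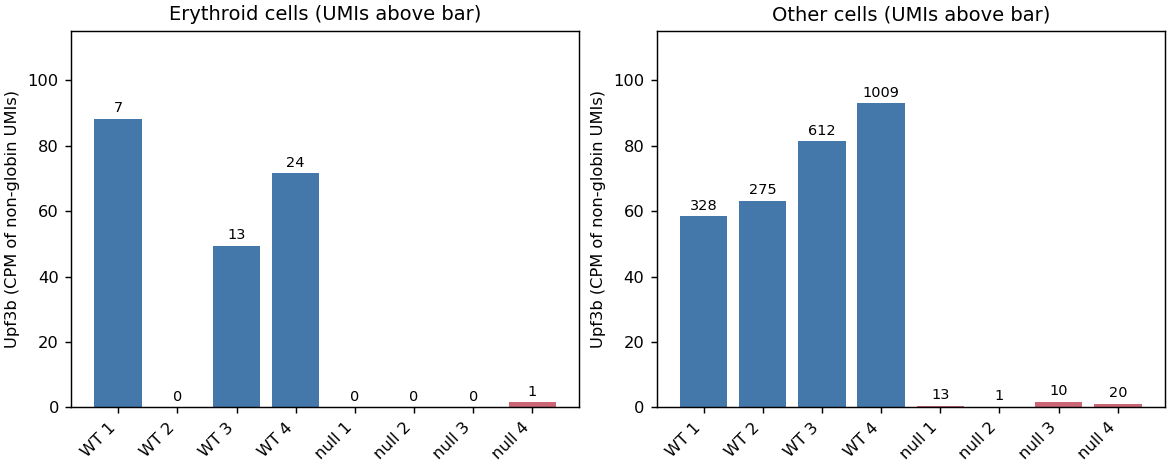
Upf3b in the summed erythroid cells (left) and other kept cells (right) of each library, in CPM of non-globin UMIs, with the number of Upf3b UMIs above each bar (blue WT, red Upf3b-null). The null libraries hold at most 1 UMI in erythroid cells, and WT 2, with 1 erythroid cell, holds none.

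The comparison of genotypes in erythroid cells called no gene other than Upf3b under any fit of all 7 libraries with the filter on low counts. The sums of the erythroid cells of each library were tested with edgeR's quasi-likelihood test, which called 0 of 4553 genes (0%) at a Benjamini-Hochberg adjusted p under 0.05, with 34 genes at an unadjusted p under 0.05. Upf3b had the lowest p, with a log2 fold change of -5.94 ± 0.905 (SE) and an adjusted p of 0.280 in edgeR. DESeq2 called 1 of 4553 genes (0.022%), which was Upf3b (adjusted p = 0.00222), and edgeR with the library set as a term, added after the sets were seen, also called Upf3b alone (adjusted p = 0.0107). With the replicate number as a block edgeR gave 0 calls, with 157 genes at an unadjusted p under 0.05. None of the other 5 NMD factors tested passed. Upf3a, the paralog of Upf3b, had a log2 fold change of -0.25 ± 0.543, Upf2 -0.11 ± 0.556, Upf1 0.07 ± 0.520 and Smg1 -0.13 ± 0.806 (SE, edgeR adjusted p = 0.999 for each).

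No erythroid gene passed between genotypes. The fold changes of the erythroid lists lay mostly above 0, and the sets held the genotypes unequally, with 3 of the 4 null but only 1 of the 3 WT libraries of this test in set A. The median log2 fold change was 0.83 for the 28 cell cycle genes, of which 28 lay above 0, 0.87 for 18 membrane and skeleton genes, 0.89 for 9 transcription factors and receptors, 0.46 for 9 heme synthesis genes and -0.59 for the 10 mOSN markers, where the median over all 4553 genes was -0.05. Markers of white blood cells had larger medians, 1.74 for 8 neutrophil markers and 1.32 for 5 monocyte and macrophage markers, with all 13 above 0 and none called. The neutrophil list includes S100a8 and S100a9, whose share in members the rule limits. With the library set as a term, chosen after seeing the data, the medians were 0.17 for cell cycle genes, of which 17 of 28 lay above 0, 0.40 for membrane and skeleton genes, 0.30 for transcription factors and receptors, -0.13 for heme synthesis genes, -0.04 for mOSN markers and 2.71 for neutrophil markers, with 0.03 over all genes. The sign of the heme synthesis median thus turned. In set A alone the medians of these 4 erythroid lists lay below 0, at -0.34 for cell cycle genes (9 of 28 above 0), -0.08 for membrane and skeleton genes (7 of 19), -0.31 for transcription factors and receptors (2 of 9) and -0.44 for heme synthesis genes (2 of 9), with 0.06 over all genes. Several marker lists of other cell types lay above 0 there. Their medians were 0.59 for mOSN, 4.03 for gland, 5.18 for neutrophil, 5.79 for sustentacular and 7.36 for monocyte and macrophage markers. The 2 B cell markers (median -0.67) and the 1 platelet marker (-0.53) tested there lay below 0. The part of all these markers in the erythroid medians was not tested. Within set A, edgeR set 1 WT against 3 null libraries and called 0 genes (74 at an unadjusted p under 0.05), and within set B it set 2 WT libraries against 1 null library and called 132 (109 higher and 23 lower in the null library). In both sets 1 genotype is a single library, which is assumed to vary like the others, so these counts compare that library with the rest. Car2 had a log2 fold change of 0.59 ± 1.08, Mkrn1 0.28 ± 0.593 and Fam46c -1.10 ± 0.803, each with an edgeR adjusted p of 0.999. Ahsp, Flvcr1 and Trac, which were in the lists under these names, were not analysed here, and Tent5c is another name of Fam46c.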

How the data were processed

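Unnormalized UMI counts by gene and barcode were deposited, made by the authors with Cell Ranger (2.0 per the labels) on mm10. The 2 bulk RNA tables were not used here. Members were found in all 8 libraries by the rule given above, and the members and gene lists were chosen with earlier results of these data known. Total UMIs per library were between 5024031 and 27673674, and the erythroid cells of the 7 tested libraries held between 37278 and 658912 non-globin UMIs. Levels are CPM of UMIs outside the 4 globin genes, from sums over cells. Named genes were the listed genes, the 25 leading genes, the calls, Upf3b and the NMD factors, and the most abundant gene of each other list. A few genes that this rule names are not reported here. Interferon-induced genes were grouped after the ranking was seen.

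Sums per library were tested with edgeR 4.0.16 (TMM, filterByExpr, robust quasi-likelihood fit) in R 4.3.3, with DESeq2 1.42.0 as an alternative, for libraries with 10 or more members, so WT replicate 2 was left out. Single values were tested by exact permutation of libraries in Python 3.11.15. The labels name no batch, but the libraries of each genotype fall into the 2 sets described above, and p-values measure the spread between these libraries, sets included. The labels number the libraries of both genotypes, and same-numbered libraries deviated together in erythroid cells (r = 0.301, 0.157 and 0.658 for numbers 1, 3 and 4) but not for number 3 in other cells (r = -0.464). Number 3 joins WT replicate 3 of set B with Upf3b-null replicate 3 of set A, and the numbers alone do not show that libraries were handled in pairs. On the erythroid values only, the numbers were treated as a possible pairing. The fit with the replicate block was run as an alternative beside the unblocked one.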

Additional observations from a re-analysis of the deposited data

Results flagged for a closer look

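Upf3b in the erythroid cells of Upf3b-null replicate 4 was 1.52 CPM against 0 in each of the other 3 null libraries. It is listed because it was the 1 value, of 18 groups of 4 libraries examined, whose distance to the nearest other library was large against the range of its group. With 3 libraries at 0 any value above 0 meets that criterion, so the usual rate of about 1 in 20 by chance does not apply. The value rests on 1 UMI and lies below the limits of 10.7, 80.5 and 5.49 CPM that the counts of 0 allow, so the library was not shown to differ from the others.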

How the results depend on the processing

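The difference in the share of erythroid cells (null minus WT, 1.94 percentage points) turned its sign without Upf3b-null replicate 3, in set B alone (-1.47) and without erythroid cells in which another marker list held over 2% of non-globin UMIs (-2.28), kept it in the other alternatives run, and no alternative passed the threshold; leaving out 1 library gave -1.30 to 3.63. The exact sign-flip test with the replicate block gave 1.94 with p = 0.5, where 4 pairs cannot reach 0.05, and the same test of the globin share of other cells gave p = 0.125. The difference in the globin share of other cells (0.292) ranged from -0.0410, without Upf3b-null replicate 3, to 0.543 when 1 library was left out. The difference in the median globin share of erythroid cells (6.87) ranged from -1.53 to 10.7 when 1 library was left out and was -6.59 without the cells with another marker list, 17.98 in set A alone and -7.26 in set B alone. The Upf3b difference (-51.9 CPM) passed the threshold without WT replicate 2 and at a globin share of 50% or more (-60.6 CPM), where that library has no member, and ranged from -69.3 to -39.9 when 1 library was left out. The count of genes between genotypes (0) was 1 with DESeq2, 1 with the library set as a term and 1 with that term and without Upf3b-null replicate 3, each time Upf3b, and 3 with no filter on low counts (Upf3b, Gm8730 and Gm5622). It was 132 in set B alone, where 1 null library is set against 2 WT libraries and is assumed to vary as they do. It was 0 in every other alternative, with each library left out and with the replicate block included, so the block changed no call. WT replicate 2, with 1 erythroid cell, was in no fit, so it could not be left out. The alternatives by library set, by 3 erythroid markers and, except for the count of genes, by other marker lists were chosen after seeing the data. Among the libraries tested, Upf3b-null replicate 2 and WT replicate 1 held the fewest non-globin UMIs in erythroid cells (37278 and 79347).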
